A study of Mus musculus with 4 samples.

Results

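Among cells sorted from mouse mammary tumors as neutrophils, 88 of 947 barcodes held almost no transcripts of 12 genes by which neutrophils are recognised. Other neutrophil markers were still found in many of them. These low-marker barcodes were chosen from the tumor library by 4 limits: at least 200 detected genes, at most 15% of UMIs (unique molecular identifiers, counts of single RNA molecules) from mitochondrial genes, under 3 UMIs summed over 12 neutrophil genes (S100a8, S100a9, Csf3r, Cxcr2, Retnlg, Ly6g, Mmp8, Mmp9, Lcn2, Il1r2, G0s2 and Msrb1), and under 2 UMIs summed over 8 macrophage and MHC class II genes (C1qa, C1qb, C1qc, Apoe, Csf1r, Cd74, H2-Aa and H2-Ab1). They made up 9.29% of the tumor barcodes that passed the first 2 limits (exact 95% interval 7.52 to 11.3%, counting error only), and the remaining 859 are called the other tumor cells. Both tissues together held 2481 barcodes passing the first 2 limits. Since measured values chose the low-marker barcodes, the 20 selecting genes were left out of the gene comparisons and of the totals behind their levels.

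Tumors came from 3 untreated FVB mice, an inbred strain, injected with Py7160, a mouse mammary tumor cell line, and were taken after 2 to 3 weeks at a diameter of about 1 cm. Blood of the same mice formed the other group. Enrichment on Ly6G, a surface protein of mouse neutrophils, gave about 90% purity, and cells were stained with 1 hashtag antibody per mouse, pooled over the 3 mice of a tissue and sorted as CD11b+ Ly6G+ to over 99%, and each pool became 1 Drop-seq library, in which droplets capture single cells on barcoded beads. The mouse is therefore the replicate, within a single tumor library, and no marker sort separated low-marker cells from the others. The series concerns Acod1, which makes itaconate, and resistance to ferroptosis, an iron-dependent cell death.

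Neutrophils are short-lived granulocytes that load their granules in the bone marrow and enter tissue carrying abundant S100a8 and S100a9, the calprotectin subunits. In tumors they make chemokines and cytokines under NF-kB, and their transcript content is small compared with that of macrophages or tumor cells.

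The mouse of a cell was read from the DNA tag on its hashtag antibody. The tags are shown because the per-mouse values below, and the barcodes left without a mouse, depend on their counts, and the capitals mark the whole tag.
Mouse 1 hashtag: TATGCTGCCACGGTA
Mouse 2 hashtag: GAGTCTGCCAGTATC
Mouse 3 hashtag: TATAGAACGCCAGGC
In the tumor library these tags held 15.16%, 66.8% and 18.04% of the hashtag counts, so that of mouse 2 dominated, whereas in blood they held 38.0%, 39.85% and 22.15%.

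The limit on neutrophil genes cut through a continuous range. Among low-marker barcodes 19 held 0, 37 held 1 and 32 held 2 neutrophil-marker UMIs, and just outside the limit 36 barcodes held 3 and 38 held 4. For the macrophage limit, 77 held 0 and 11 held 1, with 3 barcodes just outside at 2 and 16 in all excluded by that limit alone. The residual neutrophil UMIs of the 88 barcodes were mostly S100a8 (29 UMIs), Msrb1 (28) and S100a9 (25), while Ly6g, Mmp9, Lcn2 and G0s2 had 0. In blood the same 4 limits selected 9 of 1534 barcodes (0.587%, exact 95% interval 0.269 to 1.11%). Each tissue is 1 library, released from tissue in its own way, so this difference was not tested and tissue and library cannot be told apart.

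**Figure D1:**
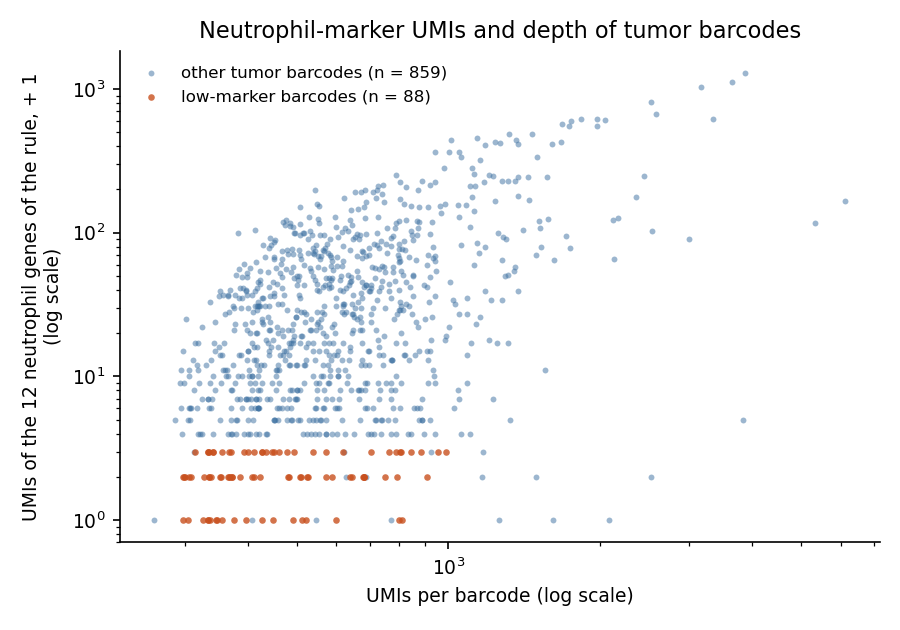
UMIs of the 12 neutrophil genes of the rule, with 1 added, against all UMIs of a barcode, both on log scales, for the 859 other and 88 low-marker tumor barcodes (1 point each). The low-marker barcodes lie at the bottom edge of an unbroken cloud, between 297 and 988 UMIs, and points of other barcodes at the same height were excluded by the macrophage limit.

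Low-marker barcodes were shallower than the other tumor cells. They held a median of 426.5 UMIs (297 to 988) and 266 genes, against 588 UMIs (261 to 6129) and 297 genes, so their depth was 72.5% of the other cells'. These totals include the selecting genes, and without them the medians were 424.5 and 546 UMIs, a depth of 77.7% of the other cells'. The limits on marker genes are absolute counts, so they favour shallow barcodes by themselves, also in UMIs outside the selecting genes. The mitochondrial share was alike, with medians of 3.20% and 3.00%, whereas the ribosomal protein genes took a median of 2.21% of a low-marker barcode's UMIs and 0.756% of another cell's. Total hashtag counts, which the rule did not use, had medians of 1030 and 1396. The part of depth in the results below was not tested beyond the comparison at a common depth given with them. No barcode with at least 200 genes occurred in both the tumor and the blood library, and 20 did among all 10000 of each.

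Hashtags left many low-marker barcodes without a mouse. HTODemux, which calls a tag against its own background, gave 10, 15 and 17 of them to mice 1, 2 and 3, which is 7.46%, 6.17% and 7.98% of the passing tumor barcodes of each mouse (mean 7.21% ± 0.931, SD, n = 3). The 3 mice thus had similar shares, each within the exact interval of the others. A further 42 of the 88 (47.7%) had no call and 4 (4.55%) carried several hashtags, against 22.0% and 13.9% of the other tumor cells. Seen from the hashtag classes, low-marker barcodes were 18.2% of the 231 barcodes without a call (exact 95% interval 13.4 to 23.8%) and 3.25% of the 123 with several hashtags (0.893 to 8.12%). The barcodes without a call were not empty of tags: hashtag 2 held a median of 96.5% of their counts in low-marker and 97.2% in other cells, with medians of 817.5 and 881 counts, against 157 in barcodes of 20 to 60 UMIs. Under a plain rule that 1 hashtag holds at least 70% of at least 10 counts, 41 of those 42 and all 189 uncalled other cells went to mouse 2, and the shares became 6.6%, 10.8% and 8.19% (mean 8.54% ± 2.13).

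Total hashtag counts per cell were then compared within each mouse. Median counts were 1360 against 1354 in mouse 1, 1797 against 1841 in mouse 2 and 857 against 1062 in mouse 3. The means of log2(counts + 1) differed by −0.05, −0.15 and −0.25 (low-marker minus other; mean −0.15 ± 0.10, SD, n = 3), with an exact paired permutation p of 0.25, two-sided, the smallest that 3 pairs allow. Under the 70% rule mouse 1 differed by 0.07 and the mean was −0.24.

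For gene levels, UMIs of the 42 low-marker and 548 other cells with a mouse were summed per mouse, giving 4303, 10330 and 8437 UMIs in mice 1, 2 and 3 for low-marker cells and 72718, 158064 and 122382 for the others. Levels are given as CPM, UMIs per 1000000 UMIs outside the selecting genes, so 1 UMI in the low-marker sum of mouse 1 is worth far more than elsewhere. Of 666 genes that passed a low-count filter, 19 were higher (2.85%) and 58 lower (8.71%) in low-marker cells by edgeR's paired quasi-likelihood test with Benjamini-Hochberg adjusted p under 0.05, and 188 had an unadjusted p under 0.05. The tested genes came from the same cells as the selecting genes. Genes whose levels go with the selecting genes can therefore differ through the choice itself. The p-values rest on the spread of the difference between classes over 3 mice of 1 library. Of the 58 lower genes, 17 had 0 UMIs in all low-marker sums and passed the filter through the other cells. In simulated sums of this depth, run on 655 genes, the test called 11 of the 88 genes given a 2-fold change (12.5%) and 50 of the 91 given a 4-fold change (54.9%), so a gene that did not pass may still differ. Leaving out mouse 1, 2 or 3 left 9, 2 and 8 higher and 22, 18 and 8 lower genes. None of the 19 higher genes kept its call without each mouse in turn, whereas Actb, Ifitm1, Ifitm2, Lmnb1, S100a11, Srgn, Tmsb4x and Wfdc17 did among the lower.

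The 10 genes with the largest fitted decreases included calcium-binding S100a11, secreted Wfdc21, the interferon-induced gene Isg15 and several receptor genes. All 10 had 0 UMIs in the low-marker sums and passed the filter through the other cells. A decrease was therefore the only call open to them, and their p-values are no separate support. The fitted order is no ranking of measured ratios. Each of their folds is a bound for the cells with a mouse, computed with 3 UMIs in place of 0 for all 3 mice together. S100a11, a calcium-binding protein of the S100 family, stood at 2063, 1828 and 1700 CPM in the other cells of mice 1, 2 and 3 and was at least 14.1-fold lower (edgeR adjusted p = 0.000232), and over all 88 low-marker barcodes it had 2 UMIs. Wfdc21, a secreted neutrophil protein with a whey acidic protein domain, was at least 9.12-fold lower. It was highest in barcodes with over 10% neutrophil-marker UMIs, at 5308 CPM. Between 0.5% and 5%, where few or no barcodes are low-marker, it stood at 137.2 to 182.0 CPM, so low levels were shared with those barcodes. The bounds were 5.53-fold for the cystatin-like gene Cstdc5, 4.94-fold for the receptor gene Cd300ld, 4.59-fold for the uridine phosphorylase gene Upp1 and 4.31-fold for the receptor gene Mrgpra2b. They were 3.96-fold for Isg15, a ubiquitin-like protein induced by interferon, 3.77-fold for Slfn4, 3.72-fold for Rac2, the GTPase of the oxidative burst, and 3.07-fold for C5ar1, the C5a receptor (edgeR adjusted p between 0.000970 and 0.0262 for these 9). The bounds do not cover barcodes without a mouse. Over all 88 low-marker barcodes Isg15 had 9 UMIs, 208.9 CPM against 515.8 CPM in all other cells. Upp1 and Slfn4 had 6 UMIs each, 139.3 CPM against 580.4 and 537.3 CPM, and the rest of the 10 had 0 to 3 UMIs. Cstdc5, Mrgpra2b and the Ifitm and Wfdc genes have near-identical relatives whose reads the authors' counting may have split, so their levels are uncertain.

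Neutrophil markers outside the rule were lower as well. The barcodes were chosen for few neutrophil transcripts, so markers that go with those can fall through the choice itself. The counts and p-values below are therefore a description and no separate support. Of these markers, Wfdc21 had 0 UMIs in the low-marker sums and passed the filter through the other cells. Of the 24 genes fixed as neutrophil markers beside the selecting ones, 16 were tested, 10 fell and 0 rose, where 8.71% of all tested genes fell and 2.85% rose, with a median log2 fold change of −3.08 (−3.04 with genes at 0 UMIs set at their bound) against −0.14 over all tested genes. The list summed to 12350 CPM in low-marker barcodes, 28890 CPM in the other tumor cells and 12400 CPM in tumor barcodes of 20 to 60 UMIs, which served as a reference for RNA outside intact cells. What those small barcodes hold was not tested. Their mitochondrial genes summed to 347700 CPM, against 35440 and 35470 CPM in low-marker and other barcodes, which lowers the CPM of every other gene in them. Of the low-marker barcodes 53, and of the other cells 819, held at least 3 UMIs over at least 2 of these genes. Hdc, which makes histamine, stood at 0, 290 and 0 CPM in low-marker cells of mice 1, 2 and 3 and at 1623, 1436 and 1716 CPM in the others, a ratio of 12.1 (exact 95% interval 4.11 to 58.8, counting error only) on 3 low-marker UMIs (edgeR adjusted p = 0.00299). Every mouse lay below every value of the other cells. For Ifitm1, an interferon-induced membrane protein, the ratio was 19.4 (6.6 to 94.0), for the cystatin Stfa2l1 26.0 (4.64 to 1030) and for Hp, haptoglobin, 15.9 (2.83 to 632). Mxd1, a MYC antagonist of late granulocytes, fell by 1.91 in log2 terms, with means of 735 ± 82.7 CPM in low-marker and 2669 ± 285 CPM in other cells (SD, n = 3).

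Other members of that list did not pass the test. Most of its remaining UMIs in low-marker barcodes came from Il1rn, the IL-1 receptor antagonist (168 UMIs), and the C-type lectins Clec4e (156) and Clec4d (101). Il1rn stood at 3718, 2711 and 5926 CPM in low-marker and 4043, 4909 and 4216 CPM in other cells, so the mice overlapped (fitted difference −0.24 in log2, edgeR adjusted p = 0.615). Clec4e and Clec4d stood at log2 fold changes of −0.78 and −0.73 (edgeR adjusted p = 0.0980 and 0.137) and did not overlap. The sorted cells' pan-leukocyte gene Ptprc, which encodes CD45, stood at 697, 194 and 0 CPM in low-marker cells and 2242, 1987 and 2043 CPM in the others, and fell by 3.29 in log2 terms (edgeR adjusted p = 0.00185). Tyrobp, a myeloid signalling adaptor, fell by 1.34 but was still found in 48.9% of the low-marker barcodes.

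Granule genes were at low levels in low-marker cells. Of the 16 listed, 3 were tested and 1 fell (Hp), where 8.71% of all tested genes fell, and with 3 genes such a share says little. Anxa1, an anti-inflammatory annexin, stood at −2.87 (edgeR adjusted p = 0.0527). The whole list held 29 UMIs, 673 CPM, in low-marker barcodes and 7769 CPM in the other cells. By mouse the sums were 465, 484 and 474 CPM against 5666, 2366 and 4707 CPM, with no overlap. Camp, a cathelicidin of secondary granules, had 0 UMIs in the 88 barcodes and Ngp 2, against 983 and 1271 in the 859 others. Nearly all of that lay in barcodes with over 10% neutrophil-marker UMIs, at 7055 and 9187 CPM. In the 5 divisions of lower marker share, most of which hold no low-marker barcode, Camp stood at 0 to 51.4 and Ngp at 0 to 61.7 CPM, so low levels of both were shared with most tumor barcodes.

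**Figure D2:**
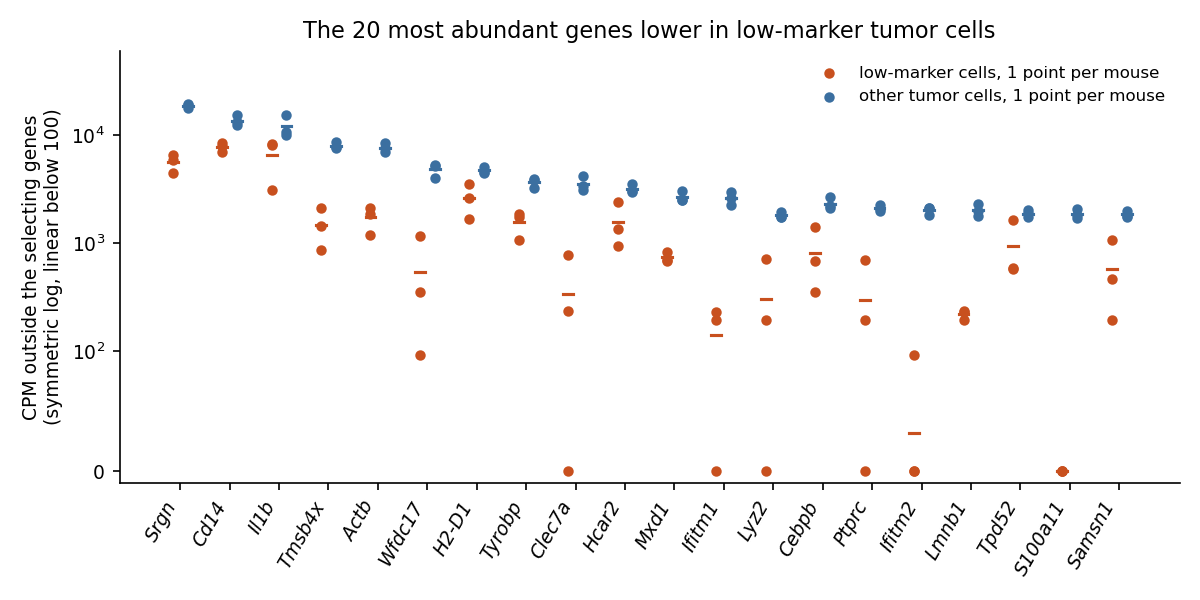
CPM of the 20 lower genes with the most UMIs in the other tumor cells, for low-marker and other cells (1 point per mouse, bars are means, n = 3). The axis is logarithmic above and linear below 100 CPM, and in all 20 genes the low-marker points lie under every point of the other cells. The 20 were picked from the genes called lower, and 26.4% of all 666 tested genes have such a gap.

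Abundant genes of the actin cytoskeleton were among the clearest decreases. Of 13 tested genes of the list 4 fell, where 8.71% of all tested genes did, and 0 rose, with a median of −1.47 (−1.39 with bounds), and 10 had all low-marker mice below the others, where 26.4% of all tested genes did. Tmsb4x, thymosin beta 4, which holds actin monomers, stood at 2092, 871 and 1422 CPM in low-marker cells and 8540, 7611 and 7754 CPM in the others, and fell by 2.65 in log2 terms (SE 0.32, edgeR adjusted p = 0.000159). Actb, beta-actin, fell by 2.22, from 7583 ± 737 to 1725 ± 486 CPM, and besides Rac2 the leukocyte actin-binding gene Lsp1 fell, by at least 2.61-fold. Barcodes with at most 0.5% neutrophil-marker UMIs held Tmsb4x at 1555 and Actb at 2276 CPM. Those with 0.5% to 1%, of which 10 of 84 were low-marker, held 1619 and 2746 CPM, and those above 10% held 14070 and 15780 CPM. Low levels of both were thus shared with other marker-poor barcodes. Vim, vimentin, stood at 930, 968 and 1067 CPM in low-marker cells and 179, 766 and 482 CPM in the others, opposite to the rest of the list but not past the test (log2 fold change 0.98, edgeR adjusted p = 0.212). Srgn, the proteoglycan core of granules and one of the most abundant transcripts of these cells, had 4416, 6583 and 5808 CPM in low-marker cells and 18760, 19250 and 17850 CPM in the others. It fell by 1.82 in log2 terms (SE 0.27, edgeR adjusted p = 0.000253), and the classes were far apart compared with the spread of either.

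Of 10 tested surface and migration genes 3 fell (C5ar1, Trem1 and Fpr2), where 8.71% of all tested genes did, and 0 rose, with a median of −1.64 (−1.20 with bounds). C5ar1 had 0 low-marker UMIs and passed the filter through the other cells. Trem1, an amplifier of inflammation, and the formyl peptide receptor Fpr2 had 3 and 1 UMIs in the low-marker sums, with ratios of 7.53 (exact 95% interval 2.56 to 36.7) and 12 (2.13 to 477). Outside the lists, and named after their values were seen, the beta-glucan receptor Clec7a, the whey acidic protein gene Wfdc17 and the lamin gene Lmnb1 had log2 fold changes of −3.23, −3.63 and −3.24. Wfdc17 stood at 1162, 97 and 356 CPM against 5184, 5264 and 4012 CPM.

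**Figure D3:**
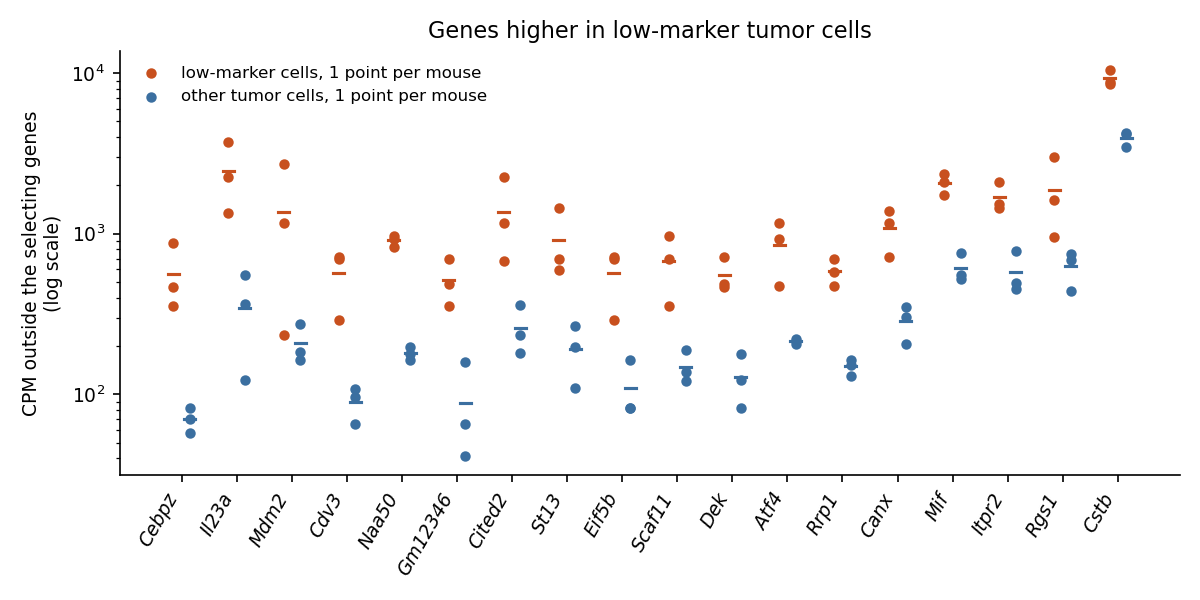
CPM, on a log axis, of 18 of the 19 genes called higher in low-marker cells, for low-marker and other tumor cells (1 point per mouse, bars are means, n = 3). The classes do not overlap in 17 genes, and for Mdm2 the low-marker value of mouse 1 lies inside the range of the other cells. The genes shown were picked as called higher, and 15.6% of all 666 tested genes have such a gap in that direction.

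The genes higher in low-marker cells were mostly of low abundance and included a cytokine subunit, stress and translation factors and a lysosomal inhibitor. Il23a, the p19 subunit of the cytokine IL-23 (GRCm38 chromosome 10, 128296139 to 128298752, minus strand), stood at 3718, 1355 and 2252 CPM in low-marker cells of mice 1, 2 and 3 and at 550, 367 and 123 CPM in the others. The log2 fold change was 2.77 (SE 0.46, edgeR adjusted p = 0.000896), with no overlap. These UMIs sat in few barcodes: 15 of the 88 (17.0%) held any, 1 held 16, and 3 barcodes held 56.2% of the 64 UMIs. Without mouse 3 the log2 fold change was 2.08 and the call was lost (edgeR adjusted p = 0.0607). Cebpz, a nucleolar factor of ribosome assembly, had the largest fitted increase, 3.03 (SE 0.59, edgeR adjusted p = 0.00368), from 69.8 ± 12.7 to 564 ± 272 CPM on 14 low-marker UMIs.

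Cstb, cystatin B, an inhibitor of lysosomal cathepsins (GRCm38 chromosome 10, 78425669 to 78427622, plus strand), was the most abundant gene called higher. It stood at 10460, 8616 and 8771 CPM in low-marker cells and 3452, 4213 and 4151 CPM in the others, a rise of 1.12 (SE 0.25, edgeR adjusted p = 0.0110). All low-marker mice were above all others, UMIs occurred in 75 of 88 barcodes, and barcodes of 20 to 60 UMIs held 814 CPM. The fit without the low-count filter gave −0.09 with no gene called higher, in a scaling where the median of all genes was −1.36. Mif, macrophage migration inhibitory factor, a cytokine also induced in hypoxia, rose by 1.65, from 611 ± 130 to 2068 ± 315 CPM. Among regulators, Atf4, the transcription factor of the integrated stress response, rose by 1.90 and Cited2, a brake on hypoxia-inducible factor, by 2.24. Genes of protein synthesis and folding that rose were Naa50, an N-terminal acetyltransferase (2.25), the translation factor gene Eif5b (2.13), the chaperone cofactor gene St13 (2.15), the ribosome assembly gene Rrp1 (1.83) and the endoplasmic reticulum chaperone gene Canx (1.76). Cdv3 (2.45), the splicing-related gene Scaf11 (2.12), the chromatin gene Dek (1.98), the calcium channel gene Itpr2 (1.43) and Rgs1, a brake on chemokine receptor signalling (1.43), rose too, as did Gm12346 (2.24), annotated as a processed pseudogene, whose reads cannot be assigned with certainty. Adjusted p-values of edgeR for these 14 genes lay between 0.0110 and 0.0420, on 11 to 47 low-marker UMIs each.

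Mdm2, the p53 ubiquitin ligase, was the one gene called higher that was not higher in every mouse, and it is named here after its values were seen. Its 36 low-marker UMIs were 1, 12 and 23 in the mice, or 232, 1162 and 2726 CPM against 275, 184 and 163 CPM, so mouse 1 lay within the other cells' range, and the fitted difference was 2.66 in log2 (edgeR adjusted p = 0.0161). A single barcode held 21 of its UMIs over all 88 barcodes. Likewise a single barcode held 27 Rgs1 UMIs, so both values rest in part on 1 cell.

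Inflammatory genes abundant in the other tumor cells were abundant in low-marker cells too. Of 24 tested cytokine and activation genes 1 rose (Il23a) and 3 fell, shares near the 2.85% and 8.71% of all tested genes, with a median of −0.31, and the list summed to 106800 CPM in low-marker barcodes and 106100 CPM in the others. Cxcl2, a neutrophil-attracting chemokine, stood at 29980, 28750 and 54880 CPM in low-marker cells and 41410, 30300 and 41480 CPM in the others, with overlapping mice (log2 fold change −0.14, edgeR adjusted p = 0.725, above 0 in 3 alternatives). Ccl3 stood at 0.17 and Nfkbia, the NF-kB inhibitor, at 0.22 (edgeR adjusted p = 0.716 and 0.562), both with signs that changed between alternatives. The 3 that fell were the lipopolysaccharide co-receptor gene Cd14 (−0.90), Il1b (−1.07) and the niacin receptor gene Hcar2 (−1.10), with edgeR adjusted p-values of 0.0279, 0.0262 and 0.0452. Il1b stood at 8134, 3098 and 8297 CPM against 15430, 10740 and 9961 CPM, so the classes did not overlap but mouse 2 was far below the rest. The call of Il1b, like those of Cd14 and Hcar2, was lost without any 1 mouse.

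Acod1 was present in low-marker cells at a level that did not pass the test. It stood at 2556, 1162 and 3082 CPM in low-marker cells of mice 1, 2 and 3 and at 3369, 3714 and 3644 CPM in the others, with a fitted log2 difference of −0.85 (SE 0.33, edgeR adjusted p = 0.107), and each low-marker value lay under the lowest other value. Barcodes of 20 to 60 UMIs held 2053 CPM, within the range of the low-marker mice. At a common depth of 347 UMIs, which leaves out 22 low-marker and 67 other barcodes, an expected 30.8% of low-marker and 55.2% of other barcodes held an Acod1 UMI (37.5% and 63.9% without thinning), and a barcode with the composition of those of 20 to 60 UMIs would hold one in 51.0% of cases. For Ccl3 the corresponding shares were 82.3%, 60.9% and 57.0%, for Cstb 79.0%, 56.3% and 24.6%, and for S100a11 1.01%, 36.4% and 9.71%. Low-marker barcodes thus held Cstb and Ccl3 more often, and Acod1 and S100a11 less often, than the other cells, as descriptions of this library.

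Genes of ferroptosis defence, the subject of the series, showed no call in either direction among 9 tested, with a median of −0.26. Of all tested genes 2.85% rose and 8.71% fell, so 0 calls among 9 genes is near those shares. Fth1 and Ftl1, the ferritin chains that store iron, stood at log2 fold changes of −0.54 and 0.00 (edgeR adjusted p = 0.118 and 0.999). Fth1 had 41370, 27010 and 38990 CPM in low-marker cells and 48780, 45870 and 47960 CPM in the others, so low-marker values were lower in all 3 mice without passing the test. Gpx4, which removes lipid peroxides, had 1 UMI in the low-marker sums and was not tested.

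Ribosomal protein, lysosomal and glycolytic genes had list medians above 0, while few of their members passed the test. Of 26 tested ribosomal protein genes 0 fell, with a median of 0.99, and 12 had all low-marker mice above the others, where 15.6% of all tested genes did. Their sum was 23240, 28560 and 15760 CPM in low-marker cells and 10270, 12750 and 13970 CPM in the others, with no overlap. Rps3 and Rps26 stood at 1.02 and 1.12 (edgeR adjusted p = 0.120 and 0.111), whereas Rps9 stood at −1.06 (0.0792), and many of these genes have processed copies in the genome. Of 9 lysosomal genes 1 rose (Cstb), where 2.85% of all tested genes did, and 0 fell, with a median of 0.76, and the list summed to 29050, 24010 and 22400 CPM against 12100, 14360 and 14440 CPM. Its protease gene Ctsb had 7204, 5518 and 4267 CPM against 2943, 3321 and 3309 CPM, a log2 fold change of 0.68 that did not pass (edgeR adjusted p = 0.117), and Psap and Npc2, lipid-handling lysosomal proteins, stood at 0.87 and 1.04 (0.0980 and 0.102). Of 12 hypoxia and glycolysis genes 1 rose (Mif), again beside 2.85% of all tested genes, with a median of 0.48, and Hilpda, a lipid droplet protein of hypoxia, stood at 0.59 (edgeR adjusted p = 0.242). In the fit without the low-count filter the medians of these 3 lists were −0.56, −0.45 and −1.09, against −1.36 over all 11226 genes of that fit, and Rps3, Rps26, Ctsb, Psap, Npc2 and Hilpda were below 0 in it as well. Without mouse 1 the hypoxia median was −0.03.

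Other programmes held few calls. With 3 to 15 tested genes each, their counts say little beside the 8.71% of all tested genes that fell and the 2.85% that rose. Of 15 immediate early genes, which also answer to tissue dissociation, Zfp36, an mRNA decay factor, fell by 1.55 and 0 rose (median −0.17). No heat shock gene of 3 passed, with Hsp90aa1 at 0.94 (edgeR adjusted p = 0.107). Of 3 tested MHC class I genes H2-D1 fell by 1.02 (edgeR adjusted p = 0.0428). None of 3 apoptosis, 6 nuclear respiratory chain or 3 mitochondrial genes passed.

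**Figure D4:**
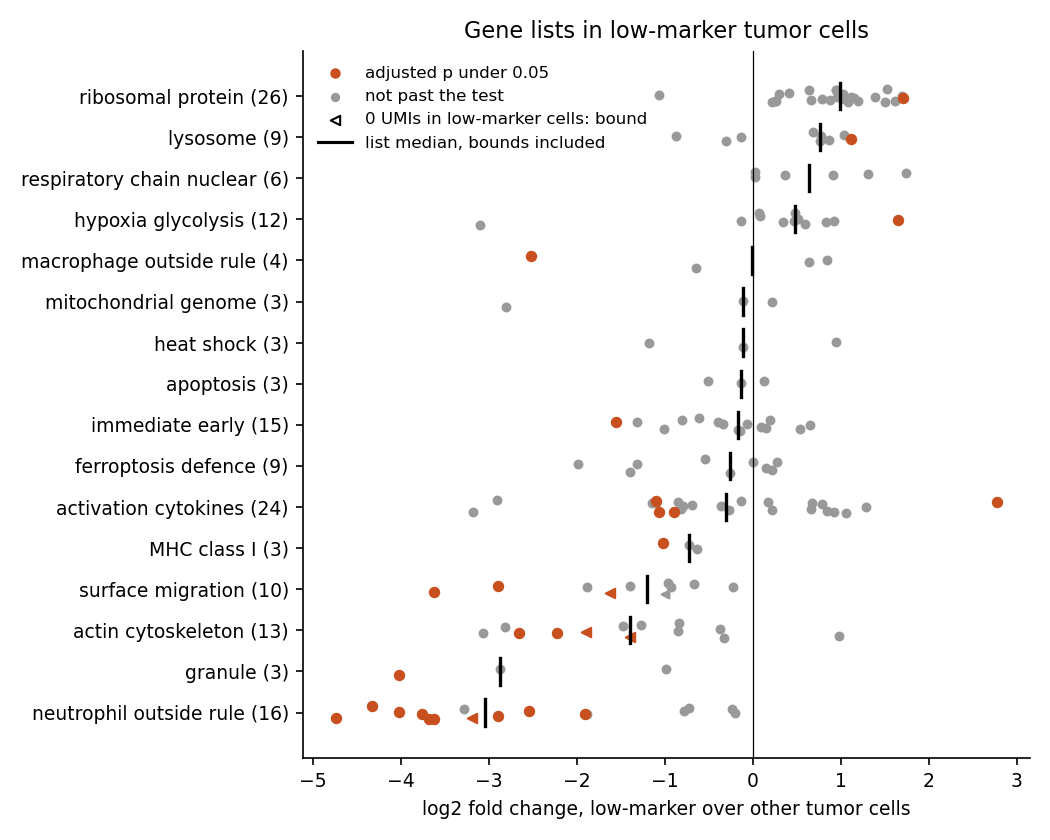
Log2 fold change, low-marker over other tumor cells, of every tested gene (1 point) of the lists with at least 3 tested genes, whose number follows the list's name. Bars are list medians, and triangles are genes with 0 low-marker UMIs, drawn at their bound. The neutrophil list has its median at −3.04 and 10 called genes, and the ribosomal list lies to the right with a median of 0.99.

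Markers of most other cell types had few or no UMIs. Those that go with the 8 genes of the macrophage limit can be low through the choice itself. Of 13 lists of other types, 8 had 0 UMIs in the low-marker barcodes (T, NK, B, plasma, dendritic, mast or basophil, erythroid and platelet). These zeros rest on 2 to 5 measured genes a list, and the NK, mast or basophil and erythroid lists were at 0 CPM in the other tumor cells too. A count of 0 of 88 allows up to 3.41% of barcodes with such a UMI (3 of 88), and at this depth it sets no limit on cells whose marker RNA was missed. Markers of mammary epithelium, the origin of the injected tumor cells, had 2 UMIs, both of Spint2, in 1 barcode, with the rest at 0. Fibroblast markers had 7 UMIs of Sparc, in 2 barcodes, endothelial markers 1 and eosinophil markers 3, of which 1 barcode passed as carrying the list. On these few UMIs the fibroblast and eosinophil lists stood at 162.5 and 69.63 CPM, against 53.91 and 41.33 CPM in other tumor barcodes. The epithelial and endothelial lists stood at 46.42 and 23.21 CPM, against 48.52 and 44.93 CPM. Macrophage markers outside the rule were the exception: 5 of 19 were detected, at 4480 CPM in low-marker and 5591 CPM in other tumor barcodes, and 26 low-marker and 211 other barcodes held at least 3 UMIs over at least 2 of them. By mouse the sums were 2324, 3969 and 5334 CPM against 3699, 4992 and 5238 CPM and overlapped.

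Those macrophage UMIs came mainly from genes that the other tumor cells also hold. Lgals3, galectin-3, had 115 UMIs and stood at 1394, 2614 and 2845 CPM against 1100, 1234 and 1332 CPM, a log2 fold change of 0.84 that did not pass (edgeR adjusted p = 0.120). Lyz2, lysozyme, which neutrophils express too, fell by 2.52 (edgeR adjusted p = 0.00901). Cd68 had 36 and Ctss 11 UMIs, and H2-Eb1 had 7, while the defining macrophage genes Adgre1, Mrc1 and Ms4a7 had 0. The macrophage limit chose against macrophage and MHC class II transcripts, so markers that go with those can fall through the choice itself. These zeros are therefore a description and no separate support. Without the barcodes of either class carrying a list of another type, 23 genes were higher and 45 lower of 484 tested.

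Levels of several of these genes were graded along the share of neutrophil-marker UMIs, a division chosen after the values were seen and closely tied to the selecting rule, so it is a description. Among tumor barcodes under the macrophage limit, Il23a went from 1719 CPM where markers made up at most 0.5% of UMIs (99 barcodes, 78 of them low-marker) through 532.7, 503.2, 223.3 and 133.7 to 37.0 CPM above 10% (209 barcodes). Cstb went from 7433 to 1925 CPM and Ccl3 from 12920 to 3946 CPM between the same ends. Both were highest in the division of 0.5% to 1%, at 7766 and 13030 CPM, where 10 of 84 barcodes were low-marker. Srgn went the other way, from 5878 to 23300 CPM, and Actb from 2276 to 15780 CPM. Acod1 was lowest at the marker-poor end, at 1588 CPM, and between 3114 and 4136 CPM in all other divisions. Barcodes with 3 to 5 neutrophil-marker UMIs, just outside the limit, held Srgn at 8782 and Il23a at 615.7 CPM, between the extremes. They held Acod1 at 2074 and Cstb at 6692 CPM. Barcodes with 0, 1 and 2 such UMIs held Acod1 at 957.4, 2553 and 1754 CPM and Cstb at 6462, 6809 and 9706 CPM. The levels of Acod1 and Cstb were thus shared with the nearest barcodes. Il23a stood at 598.4, 2156 and 1228 CPM in barcodes with 0, 1 and 2 such UMIs. At 0 such UMIs it was thus no higher than just outside the limit.

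**Figure D5:**
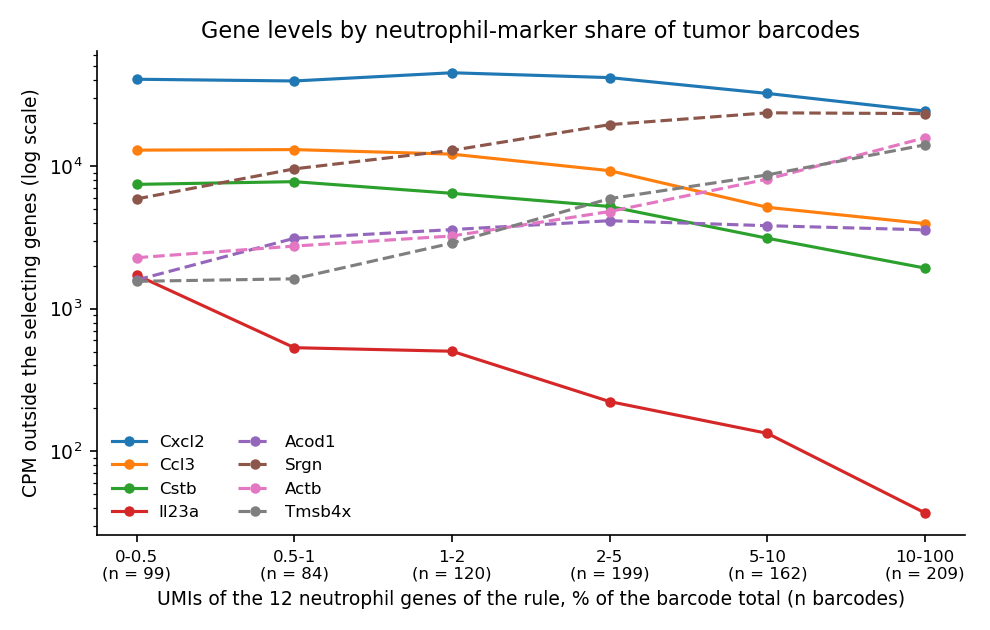
CPM of 8 genes, on a log axis, in tumor barcodes under the macrophage limit, divided by the share of UMIs from the 12 neutrophil genes of the rule (number of barcodes under each division). Il23a, Cstb and Ccl3 are lower in the last division than in the first, Srgn, Actb and Tmsb4x are higher, and Acod1 is lowest in the first division, at 1588 CPM.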

How the data were processed

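The authors deposited UMI counts per gene and barcode from Drop-seq, and counts per hashtag, for 1 tumor and 1 blood library. STAR and mm10 are named per the submitters' processing notes, while for the gene counter, annotation and barcode filter the entry is: not given in the sources used here. For tumor there were 15901 genes, 10000 barcodes, 1315437 UMIs and 5277381 hashtag counts, and for blood 15236 genes, 10000 barcodes, 1969947 UMIs and 6050054 hashtag counts. No row lacked a gene name. The members and gene lists were chosen with earlier results of these data known. Genes were named by rule: the 10 largest increases and decreases that passed in the same direction in every mouse, the 4 most abundant members of each list, Acod1, and markers of other cell types with at least 10 UMIs. Other genes, the thinned shares and the divisions by marker share were picked after values were seen. Of the 19 genes called higher, 1 is not reported here by name.

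Mice were assigned with HTODemux (Seurat 5.3.0, centred log ratio within hashtags, k-means). This setting was kept over its default clustering and scaling within barcodes, which were added as alternatives after seeing the data. The numbers of cells per mouse depend on that setting. UMIs were summed per mouse and class and tested with edgeR 4.0.16 in R 4.3.3 (quasi-likelihood, TMM, filterByExpr, mouse as block), since both classes came from the same animals by hashtag. DESeq2 1.42.0 was an alternative. The tests were checked on simulated data. Doublets were treated only through the hashtags, where barcodes with several were left out. Exact tests and intervals used scipy 1.17.1 and numpy 2.4.6 in Python 3.11.15, and plots matplotlib 3.10.9. Gene positions come from the GENCODE annotation of GRCm38. Thinned shares are expected values at 347 UMIs per cell. Alternatives changed the limits of the rule, the filter, scaling, depth, mouse assignment and comparison cells, and left out each mouse.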

Additional observations from a re-analysis of the deposited data

Results flagged for a closer look

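The 42 low-marker and 189 other tumor barcodes without a hashtag call entered no gene test, and the genes were compared in them as data outside the main measurement. Of the 19 genes called higher, 17 were higher there as well, and of the 58 called lower, 58 were lower there, as 1 pooled value per class with no test and from the same library. Cstb stood at 6608 CPM in low-marker and 3820 CPM in other barcodes without a call, Mif at 1333 and 592.2 CPM, Mdm2 at 1333 and 246.7 CPM, and Il23a at 721.9 and 404.7 CPM. Cdv3 (55.5 against 108.6 CPM, 1 UMI) and Scaf11 (111.1 against 148.0 CPM, 2 UMIs) went the other way. The selecting rule acts on these barcodes too, so genes that go with it can differ there through the same choice.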

How the results depend on the processing

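The counts of 19 higher and 58 lower genes moved with the processing, and none of these genes was called in the opposite direction under any alternative. Without the replicate block by mouse 50 genes were higher and 101 lower, with DESeq2 8 and 27, under the 70% hashtag rule 34 and 94, and with marker UMIs under 1% of the total 122 and 144. Without the low-count filter 0 were higher and 240 lower, where the median of all genes was −1.36 and edgeR's TMM factors of low-marker sums were 1.349 to 1.884, against 0.944 to 1.174. At a common depth 35 of 330 tested genes were lower, with 34 of the 45 lower genes still tested among them, under 2 marker UMIs 35 were lower, against cells with neutrophil markers 30 were higher, and with at least 250 genes 35 were higher. HTODemux scaled within barcodes gave 56 higher genes, and 57 with its default clustering, both chosen after seeing the data. Leaving out 1 mouse gave 2 to 9 higher and 8 to 22 lower genes. The share of low-marker barcodes was 5.91% under 2 marker UMIs, 17.1% under 5, 19.3% under 1% of the total and 7.38% with at least 250 genes.

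Of 1361 gene values under alternatives, 1039 kept direction and side of the threshold, 223 lost and 66 gained the call, and 33 changed sign, of which 12 did so without the low-count filter, where all genes shifted to a median of −1.36. In that fit the log2 fold changes were Cstb −0.09, Ccl3 −1.06, Tnf −0.43, Ctsb −0.53, Psap −0.33, Nfkbia −1.0, Hilpda −0.63, Lgals3 −0.39, Rps3 −0.19, Rps26 −0.10, Hsp90aa1 −0.27 and Npc2 −0.17. Of these, Ccl3 and Nfkbia passed the test there (edgeR adjusted p = 0.0246 and 0.0208). With markers under 1% the log2 fold changes were Cxcl2 0.33, Ccl4 0.02, Il1rn 0.04, Slpi 0.12, Ftl1 0.38 and Ccrl2 0.06. Cxcl2 and Ftl1 passed the test there (edgeR adjusted p = 0.0137 and 0.0164), though neither had passed in the main fit. Cxcl2 was 0.04 under the 70% rule and 0.01 without barcodes carrying another type's markers. Ccl3 was −0.36 under 2 marker UMIs and between −0.20 and 0.27 on leaving out each mouse. Nfkbia was between −0.02 and 0.14 on leaving out each mouse and −0.26 with at least 250 genes. Slpi was between −1.25 and 0.24 on leaving out each mouse, and at a common depth Il1rn was 0.08 and Slpi 0.00. Ftl1 was 0.05 without the block, 0.10 without TMM, 0.06 at a common depth, 0.01 against cells with neutrophil markers and 0.12 with at least 250 genes. The causes were not tested. With 4303 to 10330 UMIs per low-marker sum, genes of low abundance could not be compared.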
